A study of Mus musculus with 11 samples.

Results

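Carbonic anhydrases are zinc enzymes that interconvert carbon dioxide and bicarbonate. In the colon, some enzymes of the epithelium feed protons and bicarbonate to the apical exchangers through which colonocytes take up sodium chloride and secrete bicarbonate. The expression of such enzymes is a trait of mature cells near the luminal surface. Other members of the family belong to other cells of the gut wall: *Car3*, a cytosolic enzyme of low catalytic activity, is abundant in fat cells and slow skeletal muscle, and *Car8*, *Car10* and *Car11* encode related proteins without hydratase activity.

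The 9 genes described here (*Car1*, *Car2*, *Car3*, *Car4*, *Car8*, *Car9*, *Car12*, *Car13* and *Car14*) were taken by symbol from the 22836 genes of the deposited table, and the other 7 family members in that table (*Car5a*, *Car5b*, *Car6*, *Car7*, *Car10*, *Car11* and *Car15*) were used for comparison. The 9 genes were chosen by name with their fold changes in these same libraries already known, so their levels and fold changes are given as a description, without p-values.

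Whole colon RNA was sequenced in 11 mouse libraries. The transferred group (n = 5) was Tfam fl/fl Cd4 Cre mice given CD4 T cell therapy, in the methods of the study 6000000 to 7000000 CD4 T cells from the spleen and lymph nodes of 7-week-old CD45.1 congenic donors, injected retro-orbitally. The knockout group (n = 3) was Tfam fl/fl Cd4 Cre mice without cells, and the control group (n = 3) was Tfam fl/fl mice without Cre, which carry the floxed alleles that the other groups also carry. The mice of the transfer experiment were about 10 months old. The *Cd4* promoter drives Cre through a stage of thymic development at which CD4 and CD8 are both present, so that TFAM, the mitochondrial transcription factor, is lost from both kinds of T cell and not from the colon epithelium.

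Each library held 18214741 to 19178986 reads in genes, so that depth differed little. *Tfam* in whole colon averaged 1021 ± 92.1 normalized counts in transferred, 1066 ± 32.6 in knockout and 1026 ± 53.5 in control libraries (SD, n = 5, 3 and 3), which does not check a deletion in T cells alone. The epithelial markers *Epcam*, *Cdh1*, *Krt8*, *Vil1*, *Cdx2* and *Lgals4* each stood at 4994 or more normalized counts in every library, which bears out the label of the tissue. The knockout libraries also differed from control in the RNA of markers of other cells of the wall. All 11 smooth muscle markers fell, their summed counts being 36402 to 53167 in knockout and 251892 to 316145 in control libraries, and all 12 immune cell markers rose, at 32127 to 35415 in knockout and 6007 to 8786 in control libraries. Transferred libraries lay between these ranges, at 110618 to 178254 for smooth muscle and 11582 to 23650 for immune cells. Against control, 7 of the 11 smooth muscle markers were called lower and 5 of the 12 immune cell markers higher in transferred colon. Of all genes tested, 22.9% were called lower and 22.7% higher in knockout against control colon. In transferred against control colon 1.60% were called in either direction. The paper's histology of this mouse model describes a thicker muscle layer in the colon. Bulk RNA does not tell fewer cells from less RNA per cell. The part of the marker shifts in the results below was not tested.

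*Car1*, *Car2*, *Car3* and *Car13*, which all encode cytosolic enzymes, lie together on mouse chromosome 3 (GRCm39), in the order *Car13* (14706783 to 14728077, plus strand), *Car1* (14831269 to 14873459, minus strand), *Car3* (14928489 to 14937595, plus strand) and *Car2* (14951317 to 14967568, plus strand). They were the only 4 protein-coding genes annotated within these 261 kb. *Car3* and *Car2* are separated by 13.7 kb, and *Car1* and *Car3* by 55.0 kb. The map of the cluster sets this order against the fold changes: *Car13*, at one end, kept nearly the same level in all groups, while its 3 neighbours were lower in knockout colon, *Car3* by the most.

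**Figure D1:**
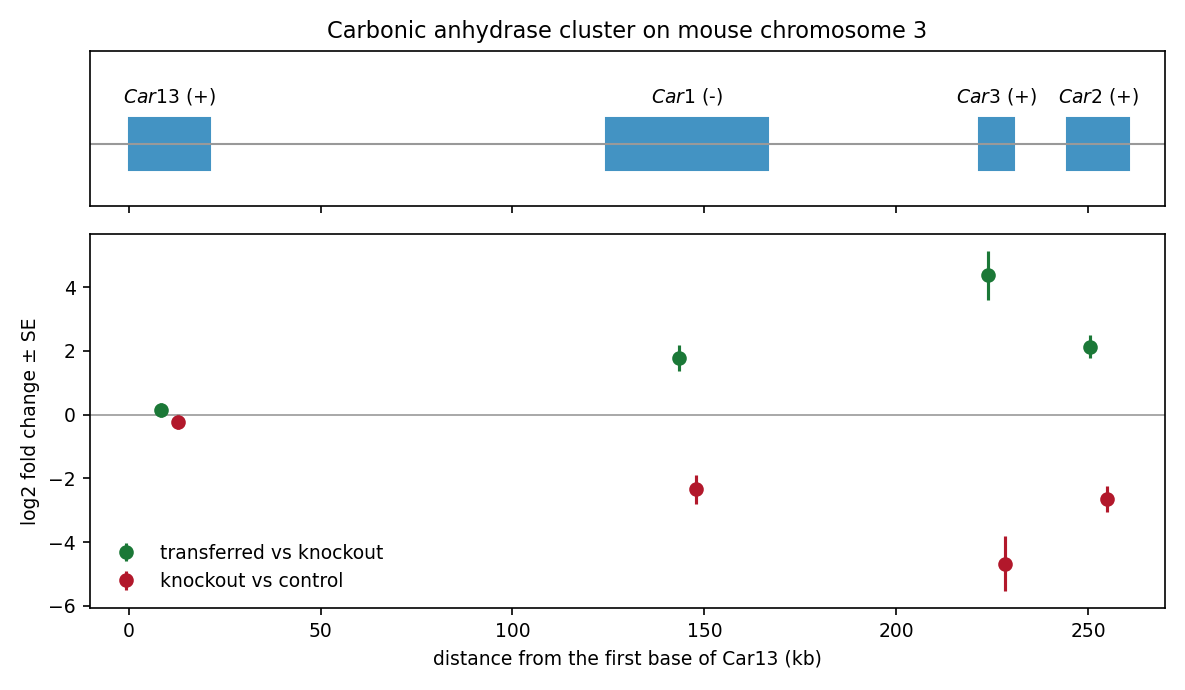
Upper panel: the 4 genes of the chromosome 3 cluster drawn to scale, with the strand in brackets, by distance from the first base of *Car13* in kb. Lower panel: log2 fold change with its standard error for each gene, transferred vs knockout in green and knockout vs control in red. *Car13* lies near 0 in both comparisons, at 0.16 and -0.22, and *Car3* lies farthest from it, at 4.37 and -4.67.

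The membrane-bound and secreted members lie elsewhere: *Car4* on chromosome 11 (84848020 to 84856879, plus strand), *Car9* on chromosome 4 (43506966 to 43513729, plus strand), *Car12* on chromosome 9 (66615426 to 66674186, plus strand) and *Car14* on chromosome 3 (95805079 to 95812646, minus strand), while *Car8* is on chromosome 4 (8141533 to 8239088, minus strand). The RefSeq promoter table (built on GRCm38.p6) held 4 of the 9 genes, *Car4*, *Car9*, *Car12* and *Car14*, and *Car1*, *Car2*, *Car3*, *Car8* and *Car13* are only named here. CA9 and CA12 are known in human cells as targets of the hypoxia-inducible factors, which bind the core ACGTG or GCGTG, so the 60 bases before the RefSeq start of each of these 4 membrane enzymes are shown with the core marked. The RefSeq starts differ from the gene ends given above, which are those of GENCODE, and all 4 stretches lie within the GENCODE spans, that of *Car9* at the first bases of its span. Coordinates are those of the single exact match of each stretch to its chromosome in GRCm39, and capitals mark ACGTG on either strand, which reads CACGT where it lies on the other strand.
Car9, chr4:43506966-43507025, plus strand: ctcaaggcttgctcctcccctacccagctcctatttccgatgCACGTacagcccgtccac
Car12, chr9:66620908-66620967, plus strand: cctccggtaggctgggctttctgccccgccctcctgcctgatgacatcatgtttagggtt
Car14, chr3:95811998-95812057, minus strand: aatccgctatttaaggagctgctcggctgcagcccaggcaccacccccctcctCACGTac
Car4, chr11:84848520-84848579, plus strand: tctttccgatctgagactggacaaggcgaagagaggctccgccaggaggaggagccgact
ACGTG was present in these 60 bases of *Car9* (first base 18 before the RefSeq start) and *Car14* (first base 7 before the start), and of 5.01% of all 32851 promoters of the table. Over the whole 300 bases of a table entry (250 before and 50 after the start) *Car4*, *Car9* and *Car14* held 1 match each and *Car12* held 0, against 19.6% of all promoters with at least 1. GCGTG had 0 matches in the 4 promoters and was present in 32.4% of all. A match of letters is a description and not a binding site, and its part in the levels of these genes was not tested.

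*Car1*, a cytosolic enzyme of red blood cells and of colon epithelium, was the dominant member. It had 208908, 322365, 205198, 160117 and 502627 normalized counts in the transferred libraries, against 114797, 49234 and 74051 in the knockout libraries and 283525, 411197 and 467708 in the control libraries. The highest knockout library lay below the lowest transferred and the lowest control library, while transferred and control libraries overlapped. How many of all genes have groups without overlap was not counted, so nothing is read from it, here or for any gene below. On the log2(normalized count + 1) scale *Car1* was -2.34 (SE 0.45) in knockout against control colon, 1.78 (SE 0.41) in transferred against knockout colon and -0.56 (SE 0.41) in transferred against control colon. Fewer cells of a type and less RNA per cell cannot be told apart in such bulk tissue, here and for each gene below. The comparisons share libraries (each group stands in 2 of the 3), so they are not independent of each other.

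In reads, *Car1* alone took 1.49% ± 0.640 of all reads in genes in transferred colon, 0.417% ± 0.183 in knockout colon and 2.03% ± 0.392 in control colon (SD, n = 5, 3 and 3). The whole family took 1.68% ± 0.670, 0.499% ± 0.197 and 2.27% ± 0.411 in transferred, knockout and control colon, so *Car1* made up most of the family's reads in each group, 87.9% ± 2.36 in transferred, 82.8% ± 4.46 in knockout and 89.5% ± 1.30 in control colon. The widest 95% Wilson interval of such a share within 1 library was ± 0.297 percentage points, which covers counting error only. Red blood cells, which also carry *Car1*, were sparsely represented: the summed counts of 8 red blood cell markers were 81.5 to 1252 in transferred, 79.3 to 394 in knockout and 74.4 to 147 in control libraries. Of the 4 red blood cell markers that could be tested, 0 passed the threshold in limma in any of the 3 comparisons, and 0 had an unadjusted p under 0.05.

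*Car2*, the high-activity cytosolic enzyme, followed *Car1*. It had 13204, 18911, 11369, 9841 and 21600 normalized counts in transferred libraries, against 5291, 1536 and 4276 in knockout libraries and 18046, 21679 and 21338 in control libraries. Its log2 fold changes were -2.64 (SE 0.41) for knockout against control, 2.13 (SE 0.37) for transferred against knockout and -0.50 (SE 0.37) for transferred against control. As for *Car1*, the knockout libraries did not overlap with either of the other groups, and replicate 5 was the highest of the transferred libraries for both genes.

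*Car4*, a GPI-anchored enzyme of the apical membrane, moved less and less evenly. It had 9635, 13359, 12856, 7151 and 12632 normalized counts in transferred libraries, against 4453, 2834 and 10379 in knockout libraries and 11801, 11567 and 16774 in control libraries. Knockout replicate 4 stood above 2 of the 5 transferred libraries. The log2 fold changes were -1.38 (SE 0.39), 1.09 (SE 0.35) and -0.28 (SE 0.35) for knockout against control, transferred against knockout and transferred against control. The first was -0.95 without knockout replicate 3 and -1.20 without control replicate 3, both short of the threshold. The second lost its call with edgeR (0.93), with only the 2 groups compared and with no variance trend (both 1.09, adjusted p = 0.0551 and 0.0508 from limma), with the replicate block (1.02) and when any of transferred replicates 2, 3 and 5 or knockout replicates 1 and 3 was left out (0.67 to 1.04).

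*Car12*, a transmembrane enzyme with an extracellular catalytic domain that sits on the basolateral side in many epithelia, had 2603, 3171, 2239, 2988 and 6139 normalized counts in transferred libraries, against 2388, 1691 and 1736 in knockout libraries and 3858, 4849 and 5358 in control libraries. All knockout libraries lay below all control libraries, 4 of the 5 transferred libraries lay below all control libraries, and replicate 3 of these lay within the range of the knockout group. Its log2 fold changes were -1.28 (SE 0.30), 0.74 (SE 0.27) and -0.53 (SE 0.27) for knockout against control, transferred against knockout and transferred against control. The second was short of the threshold in the main limma fit (log2 values) and past it in edgeR and DESeq2 on recovered reads, at 0.83 and 0.82. In limma it was past the threshold with quantile normalization (0.80) and without transferred replicate 3 (0.87) or 5 (0.51). The gene's whole span is crossed on the opposite strand by *Aph1b* (197 normalized counts on average), and the strand setting of the counter is not given in the sources used here.

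*Car14*, another transmembrane enzyme, was the rarest of the 9 genes. It had 13.7, 46.3, 35.4, 14.3 and 28.5 normalized counts in transferred libraries, against 2.94, 0.969 and 2.19 in knockout libraries and 45.2, 56.7 and 25.4 in control libraries. The 3 knockout libraries held 6 reads of *Car14* in all, against 138 in the 5 transferred and 128 in the 3 control libraries. Per read of library, the sum in transferred colon was 14.0 times that in knockout colon (95% exact interval of counting 6.26 to 38.8), and the sum in control colon was 21.5 times that in knockout colon (9.60 to 59.6). The fitted log2 fold changes, which depend on the pseudocount for so few reads, were -3.82 (SE 0.50), 3.15 (SE 0.45) and -0.68 (SE 0.45) for knockout against control, transferred against knockout and transferred against control. *Aph1a*, an abundant gene with 3107 normalized counts on average, overlaps 823 bases of *Car14* on the opposite strand, and its reads could not be told from those of *Car14* if strand was not used.

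*Car3*, the enzyme of fat cells, had a wide contrast between groups and the largest standard errors of the 9 genes. It had 3582, 1417, 1284, 1579 and 1213 normalized counts in transferred libraries, against 16.6, 94.0 and 307 in knockout libraries and 1105, 1648 and 4709 in control libraries. The group means were 1815 ± 997 in transferred, 139 ± 150 in knockout and 2487 ± 1943 in control colon (SD, n = 5, 3 and 3), which is 17.9 times as much in control as in knockout colon by the ratio of means. Its log2 fold changes were -4.67 (SE 0.85) for knockout against control, 4.37 (SE 0.76) for transferred against knockout and -0.30 (SE 0.76) for transferred against control. Whether *Car3* or *Car14* had the wider change in knockout against control colon depended on the scale: *Car3* did in limma, and *Car14* did by the ratio of means (20.9 times as much in control) and in edgeR and DESeq2 on recovered reads. Within the knockout group, replicate 1 had 16.6 and replicate 4 had 307 normalized counts of *Car3*, whereas in the same pair *Car1* was higher in replicate 1. An antisense long non-coding RNA, *Gm56774*, overlaps the first 796 bases of *Car3* and has no row in the table.

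**Figure D2:**
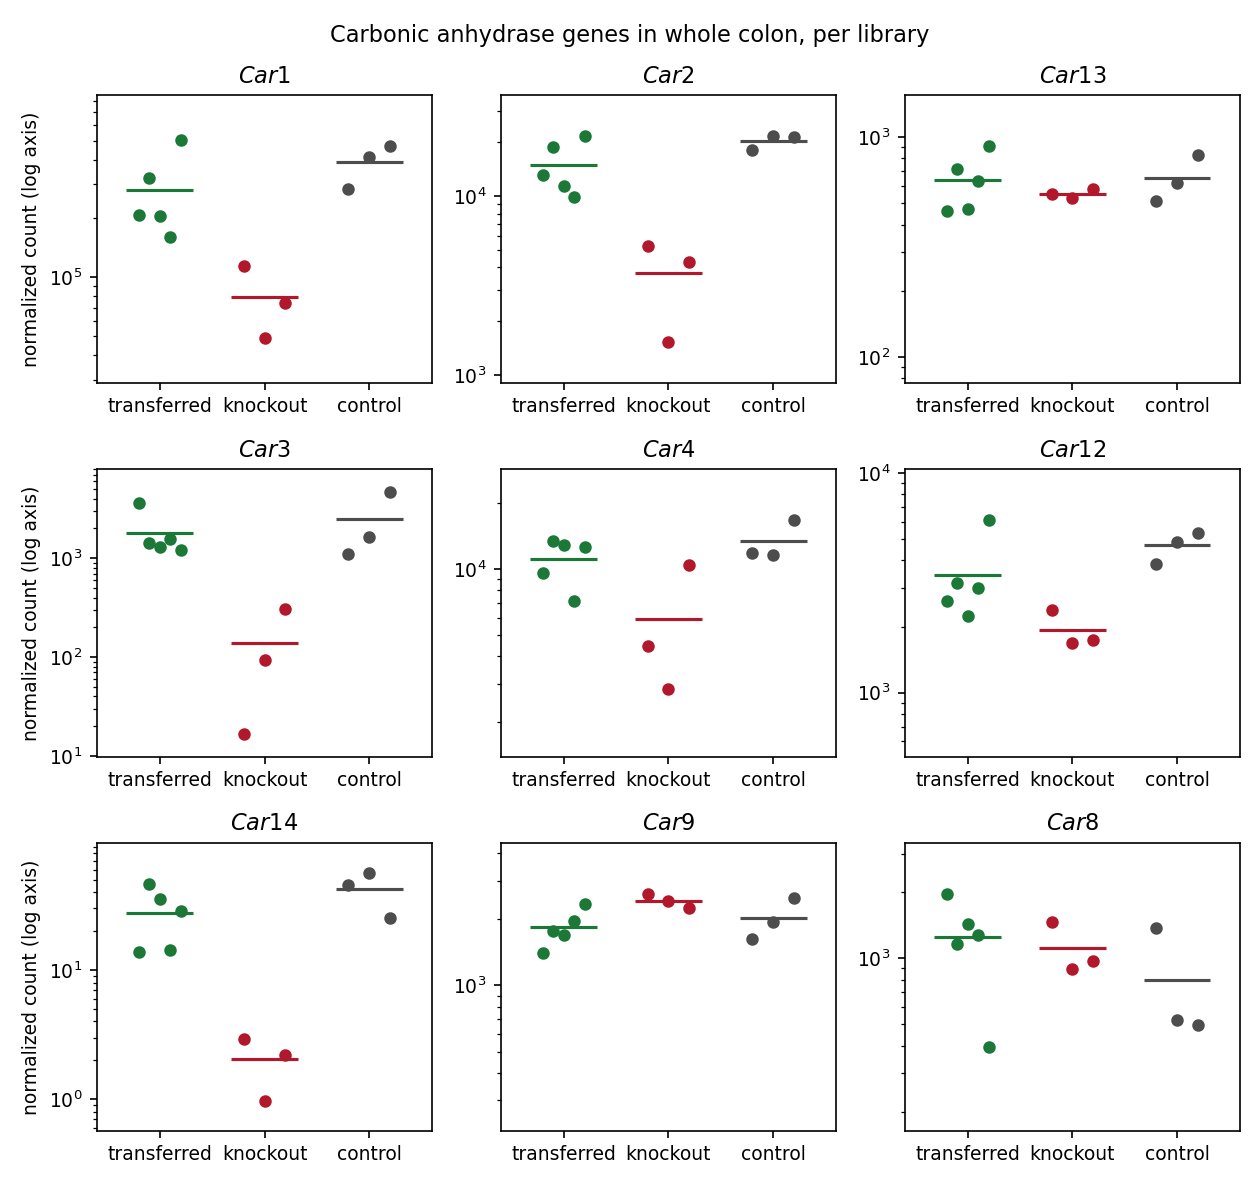
Normalized counts of the 9 genes (log axis, a separate scale in each panel) in transferred, knockout and control libraries. Each point is 1 library and each bar a group mean. *Car1*, *Car2*, *Car3* and *Car14* have no knockout library within the range of the other groups, *Car4* and *Car12* have partial overlap with transferred libraries, and *Car13*, *Car9* and *Car8* overlap in all 3 groups. How often other genes part in this way was not counted.

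The remaining 3 genes did not share this pattern. *Car13*, the cytosolic neighbour of *Car1*, had 460 to 916 normalized counts in transferred (median 633), 531 to 578 in knockout and 514 to 832 in control libraries, with log2 fold changes of -0.22 (SE 0.25), 0.16 (SE 0.22) and -0.06 (SE 0.22) for knockout against control, transferred against knockout and transferred against control. *Car9*, a transmembrane enzyme of the gut epithelium and of hypoxic tumours, had 1407, 1775, 1691, 1964 and 2352 normalized counts in transferred libraries, against 2619, 2417 and 2244 in knockout libraries and 1628, 1951 and 2514 in control libraries. 4 of the 5 transferred libraries lay below all knockout libraries, yet replicate 5 fell inside their range. The log2 fold changes of *Car9* were 0.28 (SE 0.19), -0.42 (SE 0.17) and -0.14 (SE 0.17), the first 2 of opposite sign to those of *Car1*. A long non-coding RNA, *Gm12454* (314 normalized counts on average), overlaps 1819 bases of *Car9* on the opposite strand, so reads could be shared if strand was not used. *Car8*, the related protein that binds the inositol trisphosphate receptor, had 394 to 1971 normalized counts in transferred (median 1277), 894 to 1466 in knockout and 496 to 1376 in control libraries, with log2 fold changes of 0.61 (SE 0.53), 0.03 (SE 0.47) and 0.64 (SE 0.47).

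In all, 6 of the 9 genes (*Car1*, *Car2*, *Car3*, *Car4*, *Car12* and *Car14*) were called lower and 0 higher in knockout against control colon, where 22.9% of the 16781 genes tested were called lower and 22.7% higher (limma, adjusted p under 0.05). In transferred against knockout colon 5 of the 9 (all but *Car12* of these) were called higher and 0 lower (6 and 1 at an unadjusted p under 0.05), where 17.0% of all genes were called higher and 14.2% lower. In transferred against control colon 0 of the 9 were called in either direction by limma, edgeR or DESeq2 and 0 had an unadjusted p under 0.05 in limma, where limma called 1.60% of all genes. The genes were chosen with these calls known, so nothing is read from the counts. The median log2 fold change of the 9 genes was -1.38, 1.09 and -0.30 in the 3 comparisons, and that of all genes tested was 0.02, -0.02 and -0.01.

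**Figure D3:**
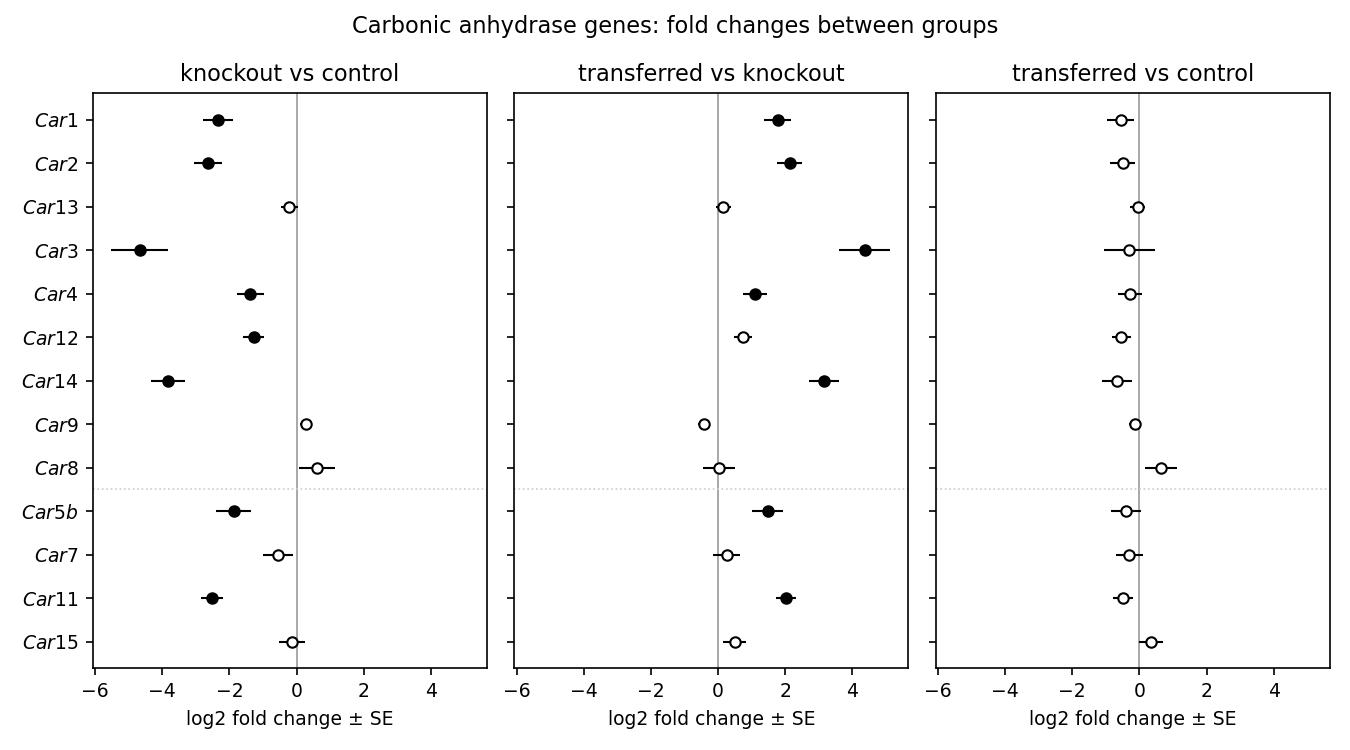
Log2 fold changes with standard errors for the 13 family genes tested, in 3 comparisons. Filled points passed an adjusted p of 0.05 over all 16781 genes, and the dotted line parts the 9 chosen genes from the other 4. *Car3* and *Car14* stand farthest from 0 in knockout vs control (-4.67 and -3.82) and transferred vs knockout (4.37 and 3.15), and no point is filled in transferred vs control.

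Of the other 7 family members, 4 had enough reads to be tested. *Car11*, which encodes a catalytically inactive relative known from the nervous system, had 119, 104, 109, 56.2 and 83.2 normalized counts in transferred libraries, against 35.2, 17.4 and 16.4 in knockout libraries and 144, 127 and 115 in control libraries. It fell by 2.51 on the log2 scale in knockout against control colon (SE 0.33, adjusted p = 0.000144 from limma) and rose by 2.02 in transferred against knockout colon (SE 0.29, adjusted p = 0.000683 from limma), with no overlap between knockout and either group. The markers of enteric neurons and glia moved with it. In knockout against control colon 10 of 12 fell, where 22.9% of all genes were called lower. In transferred against knockout colon 10 of 12 rose, where 17.0% of all genes were called higher. Among them were *Sox10* (log2 fold changes -2.45 and 1.60), a transcription factor of glia, and *S100b* (-3.23 and 2.85). The part of these neuron and glia markers in the level of *Car11* was not tested.

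*Car5b*, a mitochondrial enzyme, had 96.7, 47.3, 63.9, 45.7 and 27.4 normalized counts in transferred libraries, against 17.6, 13.6 and 24.1 in knockout libraries and 34.9, 63.6 and 144 in control libraries. It fell by 1.88 on the log2 scale in knockout against control colon (SE 0.51, adjusted p = 0.0112 from limma) and rose by 1.48 in transferred against knockout colon (SE 0.46, adjusted p = 0.0304 from limma), and the call of this rise was lost when any of transferred replicates 1 and 3 or the 3 knockout libraries was left out, with adjusted p of 0.0504 to 0.120 from limma. *Car7*, a cytosolic enzyme, had log2 fold changes of -0.56 and 0.26 (adjusted p = 0.339 and 0.663 from limma), and *Car15*, a GPI-anchored enzyme, of -0.15 and 0.50 (adjusted p = 0.776 and 0.298 from limma). *Car15* lies within *Gm20518* on the same strand, so its reads are uncertain. *Car5a*, *Car6* and *Car10* averaged 1.24, 2.30 and 5.41 normalized counts over all libraries and were below the filter.

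Compared per kb of annotated exon, the order of the 9 genes in control colon was *Car1* (203721 ± 49608 normalized counts per kb), *Car2* (4621 ± 455), *Car4* (3909 ± 859), *Car9* (833 ± 184), *Car3* (804 ± 628), *Car12* (554 ± 90.1), *Car13* (262 ± 64.9), *Car8* (53.6 ± 33.5) and *Car14* (13.0 ± 4.86; SD, n = 3 each). *Car2* and *Car4* did not differ beyond their spread, and neither did *Car3* and its neighbours *Car9* and *Car12*, whereas every control library had more *Car9* per kb than any had *Car12*. Transferred colon kept this order of means. In knockout colon *Car1* was still first, at 41725 ± 17404 per kb, but *Car4* (1720 ± 1160) and *Car9* (995 ± 76.9) stood above *Car2* (840 ± 441), without a difference beyond their spread, and *Car3* (45.0 ± 48.5) was below *Car12* (229 ± 46.0) and *Car13* (221 ± 9.54), beyond the spread, and below *Car8* (74.4 ± 20.8), within it. *Car9* thus ranked 4 in transferred and control colon and 3 in knockout colon.

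The libraries within a group separated *Car3* from the epithelial enzymes. After each group's mean was subtracted from the log2 values, *Car1* and *Car2* were related over the 11 libraries with Pearson's r = 0.87 and *Car1* and *Car12* with r = 0.84, whereas *Car1* and *Car3* gave r = -0.26 and *Car2* and *Car3* r = -0.19. *Car4* lay between, with r = 0.46 to *Car1* and 0.43 to *Car3*. These values describe 11 libraries in 3 groups, with 8 degrees of freedom after centring, and all genes of a library share its tissue piece and its scaling.

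Among the 16768 tested genes outside the family, the 5 most like *Car3* by this measure were *Plin1* (r = 0.98), *Adipoq* (r = 0.97), *Retn* (r = 0.97), *Cfd* (r = 0.96) and *A530016L24Rik* (r = 0.94). The first 4 encode perilipin 1 of the lipid droplet, adiponectin, resistin and adipsin, and were in the fat cell marker list drawn up for this comparison. The most like *Car1* were *Maoa* (monoamine oxidase A), *Aadac* (arylacetamide deacetylase), *Dio1* (type 1 deiodinase), *Ppa2* (mitochondrial pyrophosphatase) and *Ank* (a pyrophosphate transporter), all at r = 0.97. The most like *Car4* were *Mpnd* (r = 0.93), *H2-T7* (r = 0.93), *Prap1* (r = 0.91), *Cox8b* (r = 0.91) and *Dhrs11* (r = 0.90). The lowest knockout values of *Plin1*, *Adipoq* and *Retn* were 0, 1.96 and 0.979 normalized counts, so these r rest in part on values near 0. Over whole lists, the median r to *Car3* was 0.74 for the 13 fat cell markers (-0.35 to 0.98). It was -0.03 for the 17 mature surface colonocyte markers (-0.59 to 0.35) and -0.58 for the 11 smooth muscle markers (-0.71 to -0.35). The median r to *Car1* was -0.09 for the fat cell markers (-0.39 to 0.82), 0.66 for the surface colonocyte markers (-0.57 to 0.93) and 0.58 for the smooth muscle markers (0.42 to 0.76).

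*Adipoq*, which only fat cells make in quantity, is set beside *Car3* as an example. It had 830, 316, 333, 489 and 285 normalized counts in transferred libraries, against 1.96, 39.7 and 105 in knockout libraries and 291, 464 and 1075 in control libraries, which is the order of *Car3* in knockout and control libraries and, but for replicates 2 and 3, in transferred ones. The log2 ratio of *Car3* to *Adipoq* was 2.00 ± 0.19 in transferred, 1.78 ± 0.71 in knockout and 1.96 ± 0.16 in control colon (SD, n = 5, 3 and 3), so the ratio differed between groups by less than the spread of the knockout libraries. The log2 ratio of *Car3* to *Car1*, in contrast, ran over -8.69 to -5.87 in transferred, -12.67 to -7.91 in knockout and -8.00 to -6.63 in control libraries. The log2 ratio of *Car1* to *Car2* was 4.16 ± 0.22, 4.52 ± 0.45 and 4.22 ± 0.24 in transferred, knockout and control colon.

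**Figure D4:**
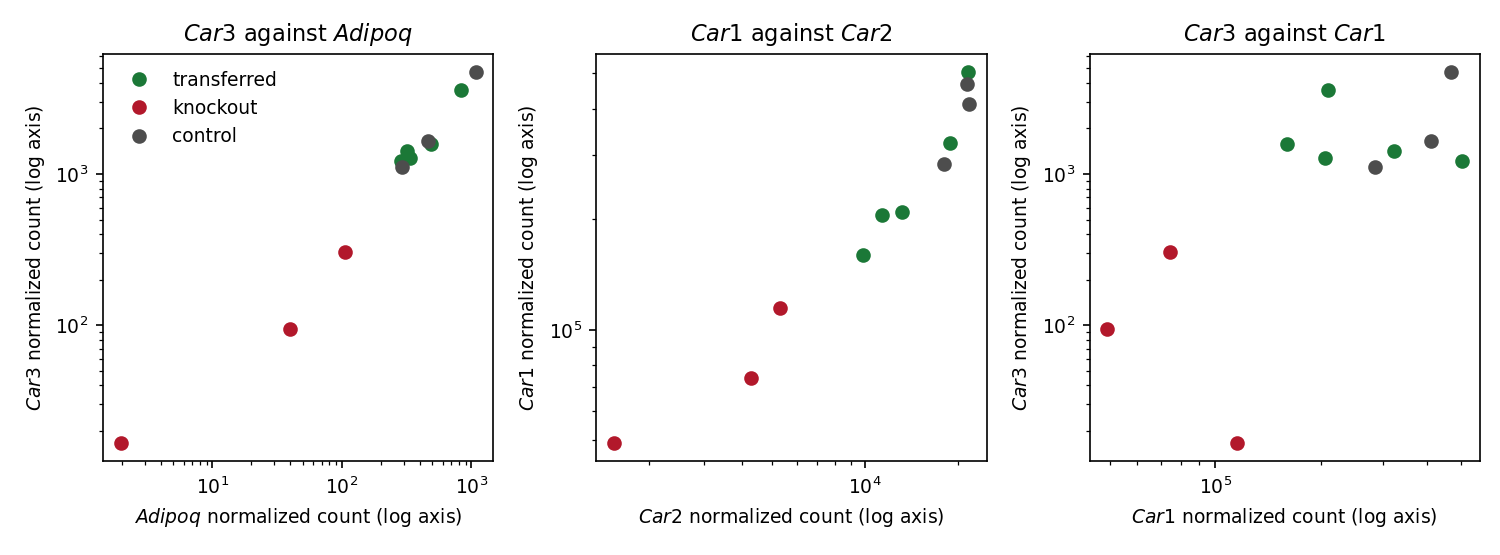
Normalized counts in each of the 11 libraries (both axes log), with *Car3* against the fat cell gene *Adipoq* on the left, *Car1* against *Car2* in the middle and *Car3* against *Car1* on the right. Points of all 3 groups lie near 1 line in the left and middle panels, with the widest spread in the knockout group. There the SD of the log2 ratio (after adding 1 to each count) was 0.71 on the left and 0.45 in the middle. In the right panel the knockout library with the highest *Car1* (114797) has the lowest *Car3* (16.6).

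*Car3* took 0.697% ± 0.495 of the family's reads in transferred, 0.165% ± 0.156 in knockout and 0.537% ± 0.319 in control colon, and 5.44% ± 3.27, 0.841% ± 0.701 and 5.23% ± 3.30 of the family's reads other than *Car1* (SD, n = 5, 3 and 3). The fat cell markers moved in the same direction. Of 13, 12 fell in knockout against control colon (median log2 fold change -2.90), where 22.9% of all genes were called lower. In transferred against knockout colon 11 rose (median 2.21), where 17.0% of all genes were called higher. These included *Plin4* (-2.90 and 2.21), *Cidec* (-2.25 and 2.12), *Lep* (-3.83 and 3.52) and *Thrsp* (-3.18 and 3.11), genes of lipid droplets, leptin and lipogenesis. The summed counts of the 13 were 7926 to 13714 in transferred, 3086 to 4369 in knockout and 7416 to 19548 in control libraries. *Plin1* and *Lep* reached 0 in a knockout library. The part of a different amount of fat tissue in the dissected pieces in the level of *Car3* was not tested. The study's methods mention removal of fat where colons were taken for histology and for cell isolation. For the RNA they name frozen tissue and do not mention fat.

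Of the 5 tested markers of skeletal muscle, the other site of *Car3*, 3 fell and 1 rose in knockout against control colon. Among all genes tested, 22.9% were called lower and 22.7% higher there. *Mb* (myoglobin) was at most 5.03 normalized counts in any library, and *Acta1* was at 48.2 to 77.2 in transferred, 50.9 to 108 in knockout and 113 to 159 in control libraries. *Ckm*, muscle creatine kinase, was at 487 to 766 in transferred, 77.5 to 162 in knockout and 1137 to 1482 in control libraries. The r of the 5 markers to *Car3* ran over -0.44 to 0.81 (median 0.02), and their part in the level of *Car3* was not tested.

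General epithelial markers were set beside the epithelial enzymes. Of 14, 0 fell (also at an unadjusted p under 0.05) and 3 rose in knockout against control colon (median log2 fold change 0.22), *Cdh1* by 0.76 (adjusted p = 0.00188 from limma), and their summed counts were 322953 to 423596 in transferred, 364494 to 452622 in knockout and 309837 to 370823 in control libraries. The markers of mature surface colonocytes were divided: of 17, 8 fell and 4 rose in knockout against control colon, and 6 rose and 0 fell in transferred against knockout colon. *Guca2a*, which encodes guanylin, had log2 fold changes of -2.27 and 1.29, *Fabp2* (intestinal fatty acid binding protein) of -2.82 and 1.54, *Mep1a* (meprin alpha) of -2.01 and 1.16 and *Cdhr5* (a brush border cadherin) of -1.08 and 0.62, each past the threshold both times. The 4 that rose in knockout against control colon were *Slc9a3*, *Guca2b*, *Ceacam20* and *Slc51b*, by 1.67, 0.97, 0.85 and 0.85. Over all genes tested, 22.9% were called lower and 22.7% higher in that comparison, and 17.0% higher and 14.2% lower in transferred against knockout colon. Of 9 tested genes of the crypt base and of proliferation 6 rose and 1 fell in knockout against control colon. Those that rose were *Mki67*, *Top2a*, *Ccnb1*, *Cdk1* and *Mcm2*, genes of cycling cells, and *Sox9*. Of the crypt base genes, *Ascl2* fell (-0.71), and *Lgr5* (-0.65) and *Axin2* (-0.08) were not called. All 3 tested position genes of the distal colon, *Hoxd10*, *Hoxa13* and *Hoxd11*, fell in knockout against control and rose in transferred against knockout colon as well. The part of the amount of epithelium, of the segment sampled, of the surface cells and of the smooth muscle in the fall of the enzymes was not tested.

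The transporters that use the products of the enzymes did not move as 1 group. Of 17 tested genes of bicarbonate, proton and chloride transport, 7 fell and 1 rose in knockout against control colon (median log2 fold change -0.44), and 4 rose and 0 fell in transferred against knockout colon (median 0.34). Of all genes tested, 22.9% were called lower and 22.7% higher in the first comparison, and 17.0% higher and 14.2% lower in the second. *Slc26a3*, the apical chloride/bicarbonate exchanger of colonocytes, had 5398 normalized counts on average in transferred, 858 in knockout and 11365 in control colon, with log2 fold changes of -3.78 (SE 0.72, adjusted p = 0.00141 from limma) for knockout against control and 2.18 (SE 0.64, adjusted p = 0.0237 from limma) for transferred against knockout. *Slc9a3*, the apical sodium/proton exchanger that works beside it, went the other way, with 4359 in transferred, 4738 in knockout and 1512 in control colon. It rose by 1.67 in knockout against control colon (SE 0.30, adjusted p = 0.000974 from limma) and was also higher in transferred against control colon, by 1.57 (SE 0.27, adjusted p = 0.0269 from limma). *Slc9a2*, another sodium/proton exchanger, fell by 0.92 in knockout against control colon (SE 0.23, adjusted p = 0.00692 from limma). *Slc26a3* and *Slc9a3* also stand in the surface colonocyte list.

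*Car9* and *Car12* were set beside 14 other genes induced by hypoxia. Of these, 7 rose and 1 fell in knockout against control colon (median log2 fold change 0.41), and 8 fell and 1 rose in transferred against knockout colon (median -0.52). The shares of all genes tested were 22.7% called higher and 22.9% lower in the first comparison, and 14.2% lower and 17.0% higher in the second. *Egln3*, a prolyl hydroxylase that is itself a target of the hypoxia-inducible factors, had log2 fold changes of 1.62 and -1.17, *Pgk1* (phosphoglycerate kinase) of 0.84 and -0.86 and *Bnip3* (a mitophagy receptor) of 0.92 and -1.27, all past the threshold. *Ndrg1* fell by 1.19 in knockout against control colon (adjusted p = 0.00355 from limma). *Car9* had log2 fold changes of 0.28 and -0.42, neither past the threshold in the main limma fit. The second was past it with the replicate block and without transferred replicate 5 (both -0.51). *Car12* had -1.28, past the threshold in the main limma fit, and 0.74, short of it. The part of hypoxia in these levels was not tested.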

How the data were processed

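Counts per gene, divided by 1 factor per library, were deposited by the authors as signal values for 22836 genes and 11 libraries. The submitters' processing notes name HISAT2 (2.2.1), SAMtools (1.13), HTSeq (1.99.2), DESeq2 (1.40.2) and GRCm39, and the paper's methods name STAR beside HISAT2. The annotation release was not found in the sources used here. Differences in tissue makeup stay in values scaled in this way. Each value was a whole multiple of its library's step (100% within 0.05), and reads were recovered from these steps. The paper calls each point an individual biological sample, but no label names an animal, so p-values measure only the spread between these libraries, and any 2 replicates differed by more than counting noise (chi-square per gene of at least 21.9).

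Symbols, positions and exon lengths came from GENCODE on GRCm39, which held 99.2% of the identifiers, and promoters from RefSeq. Groups were compared in 1 limma fit (version 3.58.1 in R 4.3.3) with a variance trend, on log2 values after adding 1, a scale that understates changes of low genes. The 16781 genes averaging 10 or more normalized counts were tested, at a Benjamini-Hochberg adjusted p under 0.05. The fit was tested on simulated data. Alternatives were pseudocounts of 0.5 and 10, no filter, a minimum mean of 50, TMM scaling, quantile normalization, edgeR (4.0.16) and DESeq2 (1.42.0) on recovered reads, a fit of the compared pair only, a fit without the variance trend, a replicate block, the study's threshold (unadjusted p under 0.05, log2 fold change over 0.6) and each library left out.

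The members, the 15 other gene lists (drawn from general knowledge) and the tests were chosen with earlier results of these data known. Named genes were the family, *Tfam*, up to 4 members per list with the smallest adjusted p, defining markers, and for *Car1*, *Car3* and *Car4* the 5 genes with the highest group-centred Pearson's r. The surface colonocyte markers that rose in knockout against control colon and the tested genes of the crypt base and of proliferation were named as well. A few genes named by this rule are not reported here. Median log2 fold changes of the lists not described in the results, for knockout against control and transferred against knockout, were 0.38 and -0.05 for 9 goblet cell markers (1 rose and 1 fell, then 0) and -0.46 and 0.22 for 8 endothelial markers (3 fell, then 3 rose). Among all genes tested, 22.9% were called lower and 22.7% higher in the first comparison, and 17.0% higher and 14.2% lower in the second.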

Additional observations from a re-analysis of the deposited data

Results flagged for a closer look

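Among 18 series of values in the 5 transferred libraries (16 family genes and 2 shares of reads), 3 had a library set apart from the others by Dixon's criterion (gap over range above 0.71), where chance gives about 1 in 20. *Car3* had 3582 normalized counts in transferred replicate 1 and 1213 to 1579 in the other 4. *Car12* had 6139 normalized counts in transferred replicate 5 and 2239 to 3171 in the other 4. *Car6* had 14.7 normalized counts in transferred replicate 3 and 0 to 2.74 in the other 4.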

How the results depend on the processing

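The count of listed genes called was 6 for knockout against control and 5 for transferred against knockout, and 5 to 6 and 4 to 6 when each library was left out. The 6 in transferred against knockout colon, without transferred replicate 5, were 5 called higher and 1 lower, *Car9* (-0.51). In transferred against control colon it was 0, 2 with the replicate number as a block (*Car8* and *Car12*) and 0 to 1 with a library left out, the 1 being *Car12* without transferred replicate 5 (-0.77). All genes called there numbered 268, against 177 with edgeR, 1236 with DESeq2, 23 with only the 2 groups compared, 145 with no variance trend, 930 with the replicate block, 1663 at the study's threshold and 11 to 831 with a library left out. In transferred against knockout colon, 5240 genes were called, 3078 to 5267 with a library left out, the lowest counts being those without knockout replicate 3 (3078) and 4 (3336). Correlations of deviations between libraries with the same number were -0.102 to 0.386 and not over 0.1 in every pair (0.386, 0.269 and -0.102 for transferred and control 1, 2 and 3), so the numbers were not taken as pairs. With the block, *Car4* in transferred against knockout colon was short of the threshold (1.02), *Car8* and *Car9* were past it (0.52 and -0.51) and *Car13* changed sign (-0.0264). Values near 0 changed sign elsewhere: *Car15* in knockout against control (0.0603) and *Car7* in transferred against knockout (-0.15) with quantile normalization. With libraries left out, *Car15* ran over -0.48 to 0.12 in knockout against control, *Car8* over -0.18 to 0.40 in transferred against knockout, and in transferred against control *Car3* over -0.75 to 0.30, *Car9* over -0.29 to 0.0236, *Car13* over -0.21 to 0.13 and *Car5b* over -0.88 to 0.13. The causes were not tested. Depth limits *Car14* and the genes under the filter.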
